A study of Sus scrofa with 9 samples.

Results

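CD4 and CD8A encode the surface coreceptors by which T cells are usually told apart, and their transcripts were read here in T cells that had been sorted on those same proteins. All probes whose unversioned accession maps to pig CD4 or CD8A in RefSeq's gene table for Sscrofa11.1 were taken. Of 3052 genes named on the array these are 2. They had 2 probes for CD4 (NM_001001908, probes A_72_P077421 and A_72_P306178) and 2 for CD8A (NM_001001907, probes A_72_P077466 and A_72_P685866), or 4 of 43603 probes. For each gene, the probe of higher mean signal is called the first probe and the other the second. No probe was named for CD8B, the beta chain of CD8, which was not analysed here.

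The samples were mononuclear cells from the blood of sows, separated on Percoll and then sorted by flow into 3 fractions with 3 arrays each. CD3+CD4+CD8+ cells are called DP, CD3+CD4+ cells the CD4 fraction and CD3+CD8+ cells the CD8 fraction, and no treatment is named for any of them. The cells of the last 2 are also called CD4 cells and CD8 cells. The labels name each fraction by the markers it carries, and do not say whether cells with the other coreceptor were gated out or which chain of CD8 was stained. The number of sows, their age and breed, the antibodies and the purity of the fractions are not stated in the labels. They speak of biological replicates without tying arrays to animals, so p-values measure the spread between these samples.

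CD4 is a single chain that binds MHC class II, and CD8 binds MHC class I. The cytoplasmic tails of CD4 and of the CD8 alpha chain bind the kinase LCK, which brings it to the T cell receptor complex when a coreceptor and the receptor engage the same MHC molecule. CD8 is built either from an alpha and a beta chain or from alpha chains alone, so CD8A is needed for both forms. T cells with both CD4 and CD8 alpha are common in the blood of pigs and are known as antigen-experienced helper cells. Porcine natural killer cells and part of the gamma delta T cells also carry CD8 alpha.

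Each of the 4 probes had 1 spot per array, which made 36 spots. None of these was saturated or marked as an outlier, and 28 were well above background by the scanner software's flag. Values are log2 of the processed signal relative to the array's 75th percentile unless a linear signal is named. That percentile lay between 15.2 and 84.1 linear units, and 32.6% to 53.7% of probes were well above background per array. The arrays lay on 3 slides, of which the first held DP array 1 alone. Slide 2 held 1 array of DP, 1 of the CD4 fraction and 2 of the CD8 fraction. Slide 3 held 1, 2 and 1 in the same order. Differences given within a slide thus rest on 1 or 2 arrays per fraction and carry no test.

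CD4 transcripts overlapped between DP and the CD4 fraction and were much lower in the CD8 fraction. The first CD4 probe read 2.78, 2.54 and 1.09 on DP arrays 1, 2 and 3. On the arrays of the CD4 fraction it read 2.35, 1.92 and 1.47, against -3.27, -0.79 and -2.06 on those of CD8 cells. The DP and CD4 fraction arrays overlapped, and every array of both lay above all 3 of the CD8 fraction. The second CD4 probe read 1.88, 1.21 and 1.75 on the DP arrays, 1.77, 2.05 and 2.01 for CD4 cells, and -2.75, -3.68 and -0.83 for CD8 cells. Its arrays were ordered in the same way, with overlap between DP and the CD4 fraction only. Lack of overlap was shown by 9.77% of tested probes between DP and the CD8 fraction and by 8.01% between the CD4 and CD8 fractions. As in any bulk sample, fewer cells of a type and less RNA per cell cannot be told apart.

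In the CD8 fraction each CD4 probe was well above background on 1 of 3 arrays and at the software's floor on 1 other, so the sizes of the folds against it rest in part on spots near background. DP exceeded the CD8 fraction 18.1-fold by the first CD4 probe (log2 4.17, SE 0.64, n = 3 and 3, limma adjusted p = 0.0208). The second probe gave 16.4-fold (log2 4.03, SE 0.62, limma adjusted p = 0.0208). Of the 4 probes, these 2 passed between DP and the CD8 fraction, where 0.312% of the 16024 tested probes passed. The CD4 fraction exceeded the CD8 fraction 15.5-fold by the first probe (log2 3.96, SE 0.64, limma adjusted p = 0.0144) and 20.6-fold by the second (log2 4.36, SE 0.62, limma adjusted p = 0.00676). The 3 comparisons share arrays and are not independent of each other. Within slides 2 and 3 the first probe differed by 4.57 and 3.15 between DP and the CD8 fraction, and by 3.95 and 3.97 between the CD4 and CD8 fractions. The second probe gave 4.43 and 2.58 for the former and 5.27 and 2.71 for the latter.

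Between DP and the CD4 fraction the 2 CD4 probes pointed in opposite directions, and neither passed. The first differed by 0.22 (95% confidence interval -1.16 to 1.60) and the second by -0.33 (-1.67 to 1.01), with a limma adjusted p of 0.99992 for both. In fold terms the intervals ran from 0.448 to 3.02 and from 0.315 to 2.02 for DP over the CD4 fraction. These intervals do not show that the levels are alike. As a share of the mean linear signal of the CD4 fraction, the DP arrays stood at 127% ± 63.8 by the first probe and 81.0% ± 18.5 by the second (SD, n = 3). DP array 3 was the lowest of its fraction by the first probe and in the middle by the second. Within slides 2 and 3 the first probe gave 0.61 and -0.82.

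The calls of CD4 were near the threshold when arrays were left out, while the differences stayed at 3.34 or more. For DP against the CD8 fraction the first probe did not pass without DP array 1 (limma adjusted p = 0.109), DP array 2 (0.0926), CD4 fraction array 2 (0.0523), or CD8 fraction array 1 (0.0527) or 3 (0.0861). For the CD4 against the CD8 fraction it did not pass without CD4 fraction array 1 (limma adjusted p = 0.0677) or 2 (0.0719), or without CD8 fraction array 1 (0.0654) or 3 (0.0729). For DP against the CD8 fraction the second probe did not pass without DP array 1 (limma adjusted p = 0.109) or 2 (0.0567), CD4 fraction array 2 (0.0528), or CD8 fraction array 1 (0.0641) or 2 (0.0864). Between the CD4 and CD8 fractions it passed whichever array was left out, with limma adjusted p-values from 0.00324 to 0.0444. With slide as a fixed block the first probe gave 3.92 (limma adjusted p = 0.155) between DP and the CD8 fraction and 4.09 (0.0518) between the CD4 and CD8 fractions, and with normexp background correction 1.59 (0.261) and 1.40 (0.476). For DP against the CD8 fraction the second probe also did not pass with the slide block (3.74, limma adjusted p = 0.106), with a percentile over probes detected on all arrays (4.09, 0.0512) or with normexp (adjusted p = 0.179). Between the CD4 and CD8 fractions it did not pass with normexp (1.36, 0.0597).

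**Figure D1:**
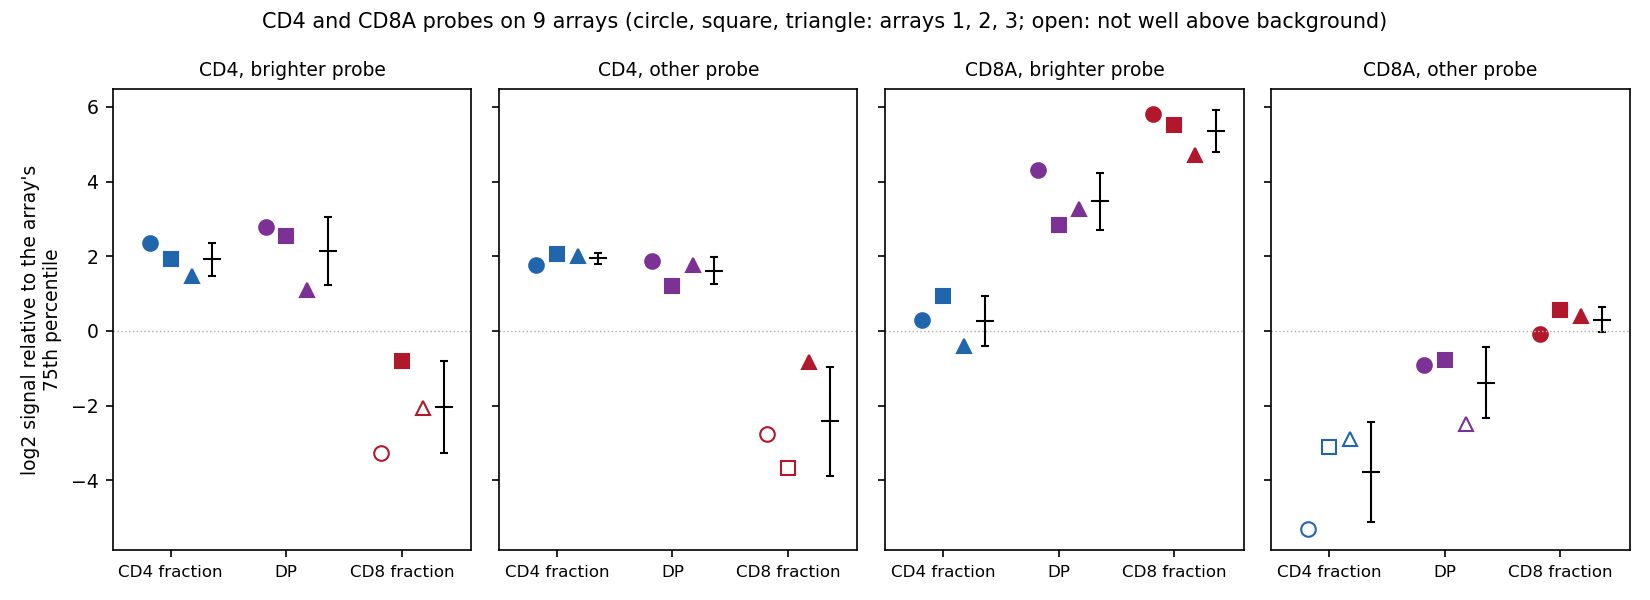
Log2 signal relative to the array's 75th percentile (vertical axis) of the 4 probes on each array of the 3 fractions, 1 panel per probe; circles, squares and triangles are arrays 1, 2 and 3, open symbols are spots not well above background, and the black bars are the mean ± SD (n = 3). Both CD4 probes are high in the CD4 fraction and DP and low in the CD8 fraction. The means of both CD8A probes step up from the CD4 fraction through DP to the CD8 fraction.

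By their means, CD8A transcripts were lowest in the CD4 fraction, intermediate in DP and highest in the CD8 fraction. Not every step passed: DP against the CD8 fraction passed for neither probe, and DP against the CD4 fraction for the first probe only. The first CD8A probe read 4.32, 2.84 and 3.26 on DP arrays 1, 2 and 3. The CD4 fraction gave 0.29, 0.94 and -0.40, and the CD8 fraction 5.81, 5.53 and 4.72. The second CD8A probe was much dimmer, with -0.91, -0.77 and -2.48 for DP, -5.31, -3.11 and -2.89 for CD4 cells and -0.08, 0.57 and 0.40 for CD8 cells. For both probes the 3 fractions did not overlap, where 10.1% of tested probes had DP and the CD4 fraction apart. Among all tested probes 0.0999% had their 3 fractions apart in this order. The second probe entered the test only through the CD8 fraction, where it is high, so its lack of overlap is not counted as support. For the second probe no spot of the CD4 fraction was well above background, nor was DP array 3. Before scaling, DP array 3 read 3.39 linear units and CD4 fraction array 3 read 3.89. The lack of overlap between these 2 fractions for that probe thus rests on how dim spots were scaled.

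DP exceeded the CD4 fraction 9.18-fold by the first CD8A probe (log2 3.20, SE 0.49, n = 3 and 3, limma adjusted p = 0.0179). This was the 1 probe of the 4 that passed between DP and the CD4 fraction, where 0.293% of tested probes passed. The second CD8A probe gave a log2 difference of 2.38 (SE 0.75, limma adjusted p = 0.399). No array of CD4 cells had it well above background, so its fold was given as a bound, of at least 1.53. This bound carries no sampling error, includes DP array 3, which was not well above background either, and does not show that DP was higher. That bound sets the mean of DP against, for each array of the CD4 fraction, the higher of the probe's own value and the lowest value of any probe well above background. Within slides 2 and 3 the first probe differed by 1.90 and 3.32. It did not pass without DP array 1 (log2 2.78, limma adjusted p = 0.131), which was its highest DP value, nor without CD4 fraction array 3 (2.86, 0.0898), which was its lowest value in that fraction. With slide as a fixed block it gave 2.68 (limma adjusted p = 0.141), and with normexp background correction 2.09 (0.215), neither passing.

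The CD4 fraction was 33.8-fold below the CD8 fraction by the first CD8A probe (log2 -5.08, SE 0.49, limma adjusted p = 0.000985). By the second probe it was at least 4.92-fold below, by the bound, which carries no test. The fitted log2 difference of the second probe, dim spots included, was -4.06 (SE 0.75, limma adjusted p = 0.0337). That probe entered the test only through the CD8 fraction, where it is high, so its call is not counted as support. The other 3 probes, both of CD4 and the first of CD8A, passed between the CD4 and CD8 fractions, where 0.437% of tested probes passed. The first CD8A probe passed whichever array was left out, with log2 differences from -5.41 to -4.74 and limma adjusted p-values up to 0.0161. Its differences within slides 2 and 3 were -4.73 and -4.78. The second did not pass without DP array 1 (limma adjusted p = 0.0639), CD4 fraction array 1 (0.0980) or 2 (0.0728), or CD8 fraction array 1 (0.122), 2 (0.198) or 3 (0.126).

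The lower CD8A of DP than of the CD8 fraction did not pass. The first probe differed by -1.88 (95% confidence interval -2.95 to -0.81, unadjusted p = 0.00223, limma adjusted p = 0.218) and the second by -1.68 (-3.31 to -0.06, limma adjusted p = 0.743). Both were lower on all 3 DP arrays than on all 3 arrays of the CD8 fraction, a lack of overlap that 9.77% of tested probes showed in either direction. For the second probe, which was tested only through the CD8 fraction, this is not counted as support. The nearest pair of arrays was 0.40 apart for the first probe and 0.69 for the second. As a share of the mean linear signal of the CD8 fraction, DP arrays 1, 2 and 3 stood at 46.5%, 16.7% and 22.3% by the first probe and at 42.5%, 47.0% and 14.3% by the second. Within slides 2 and 3 the first probe differed by -2.83 and -1.46. A limma F test over the 3 fractions passed for both CD4 probes (adjusted p = 0.00991 and 0.00772) and for the first CD8A probe (0.00181), where 0.612% of tested probes passed, and not for the second CD8A probe (0.0647).

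**Figure D2:**
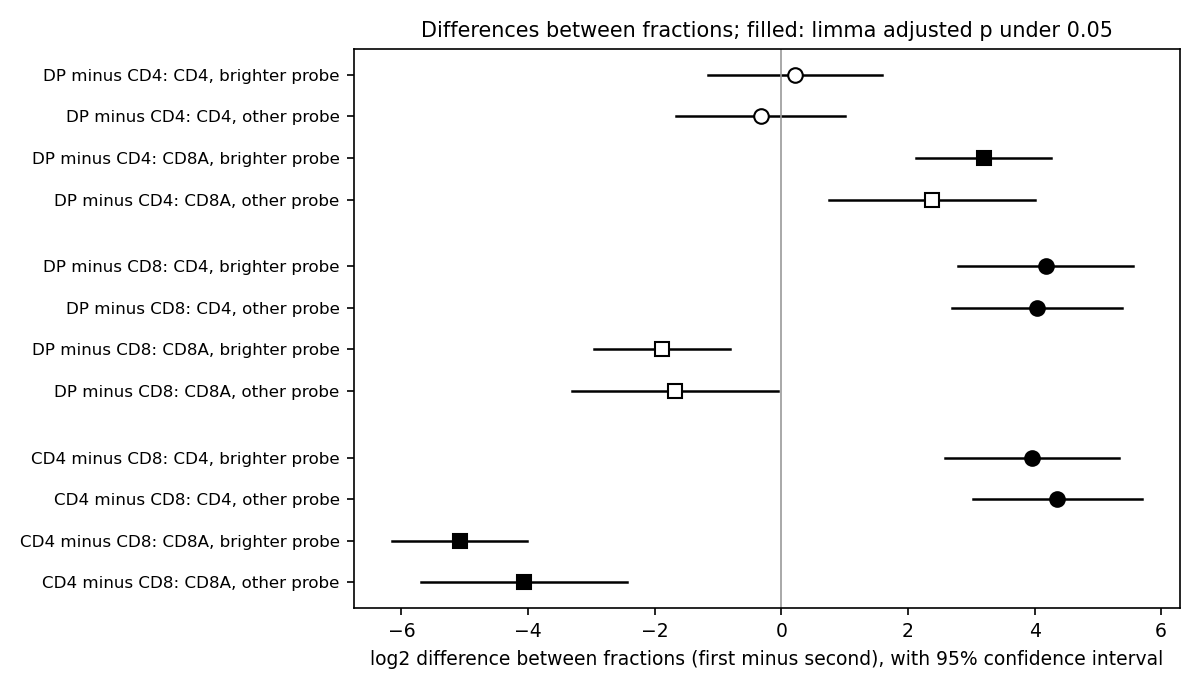
Log2 differences between fractions (horizontal axis, first minus second fraction) of the 4 probes in the 3 comparisons, with 95% confidence intervals from the limma fit over 9 arrays; circles are CD4 probes, squares are CD8A probes, and filled symbols have a limma adjusted p under 0.05. The CD4 probes sit on both sides of 0 between DP and the CD4 fraction, at 0.22 and -0.33, and the CD8A probes sit at -1.88 and -1.68 between DP and the CD8 fraction without passing.

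The difference between the first CD4 and the first CD8A probe within an array does not depend on how that array is scaled, so its change between fractions was read as well. It was -1.54, -0.30 and -2.17 on DP arrays 1, 2 and 3. The CD4 fraction gave 2.07, 0.99 and 1.88, and the CD8 fraction -9.08, -6.32 and -6.78. The 3 fractions did not overlap, with the CD4 fraction highest and DP between the others. DP was lower than the CD4 fraction by 2.98 and higher than the CD8 fraction by 6.06 in the mean. With normexp background correction the 2 differences were -1.89 and 2.99, and the CD8 fraction holds 1 CD4 spot at the floor. An exact permutation test of 3 against 3 arrays gave p = 0.10 for each pair of fractions, two-sided, which is the smallest it can give, and 0.30 after adjustment over 9 such tests. An exact permutation test of the F ratio over all 1680 assignments of 9 arrays to 3 fractions, chosen after the data were seen, gave p = 0.00357, the smallest it can give, and 0.0107 after adjustment over 3 measures. The fractions also lay apart, in the same order, when either or both probes were replaced by the second probe of the gene.

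**Figure D3:**
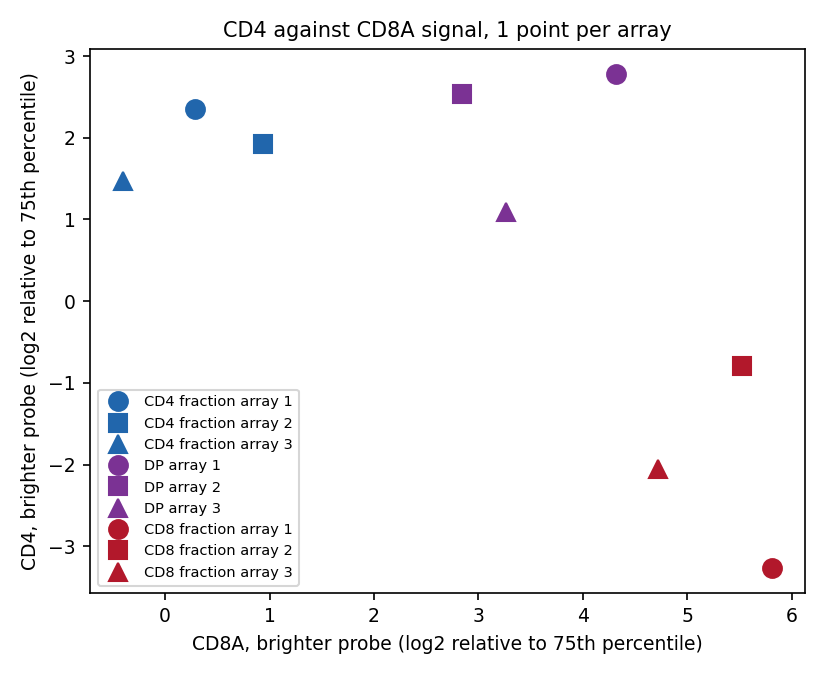
Log2 signal of the first CD4 probe (vertical axis) against the first CD8A probe (horizontal axis), both relative to the array's 75th percentile, with 1 symbol per array; blue is the CD4 fraction, purple is DP, red is the CD8 fraction, and circles, squares and triangles are arrays 1, 2 and 3. DP shares its CD4 range with the CD4 fraction, and its CD8A values of 2.84 to 4.32 lie between those of the other fractions.

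Residual signal of each coreceptor in the fraction named without it was then described spot by spot. CD8A was present in the CD4 fraction by its first probe, with linear signals of 102.6, 29.2 and 21.8 on arrays 1, 2 and 3 and scanner errors of 10.4, 3.41 and 2.74. All 3 were well above background, since the lowest signals carrying that flag on those arrays were 9.10, 8.81 and 8.33. After scaling, these signals were 4.43%, 6.95% and 2.74% of the mean of the 6 arrays of DP and the CD8 fraction. They made up 10.6% ± 4.78 of the DP mean and 3.02% ± 1.36 of the CD8 fraction's mean (SD, n = 3). CD4 fraction array 1 had the highest linear signal and also the highest 75th percentile of all arrays, and after scaling array 2 was the highest of the 3. The second CD8A probe read 2.12, 1.77 and 3.89 linear units there, with errors of 1.93, 1.76 and 1.71. None of these was well above background, and array 2 lay at the floor that the scanner software sets.

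CD4 in the CD8 fraction lay at or close to background. The first CD4 probe had linear signals of 1.91, 14.0 and 7.13 on arrays 1, 2 and 3, with errors of 1.91, 2.35 and 1.77. Only array 2 was well above background, where the lowest such signal was 9.43. The second CD4 probe read 2.74, 1.89 and 16.7 with errors of 1.93, 1.89 and 2.33, and only array 3 was well above background. By this flag the 2 probes of the gene placed the residual CD4 signal on different arrays, and each lay at its floor on 1 other array. A weaker flag of the software, for signal above background, was carried by the first probe on arrays 2 and 3. The second probe carried it on arrays 1 and 3, so both had it on array 3. Relative to the mean of DP and the CD4 fraction, the residual signal was 2.35%, 13.1% and 5.45% by the first probe and 4.26%, 2.23% and 16.2% by the second. The means were 6.96% ± 5.52 and 7.55% ± 7.52 (SD, n = 3), so the SD was as large as or close to the mean. Without CD8 fraction array 2 the first probe's mean was 3.90%, and without array 3 the second probe's was 3.25%.

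The spot of the first CD4 probe on CD8 fraction array 2 was drawn 57.5 wide by the scanner software, in units the files do not state. It was the widest of the 36 spots, the next reaching 51.1 and the median being 48.5. On that array 4.94% of all spots other than controls were at least as wide. Its part in the signal was not tested.

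**Figure D4:**
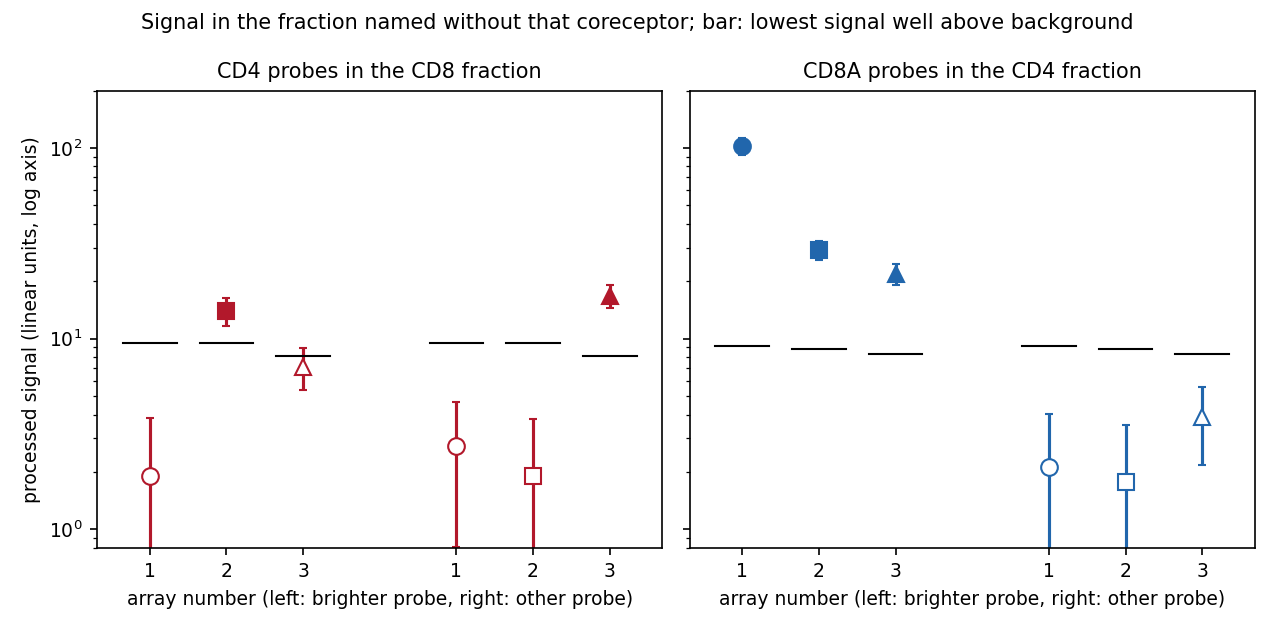
Processed signal (vertical axis, linear units on a log axis) with the scanner software's error for the CD4 probes in the CD8 fraction (left panel) and the CD8A probes in the CD4 fraction (right panel), for arrays 1, 2 and 3 of the first and then the other probe; filled symbols are well above background, the short black bar is the lowest signal well above background on that array, and error bars that reach below the axis are cut by it. The first CD8A probe stands above the bar on all 3 arrays of the CD4 fraction, and each CD4 probe stands above it on 1 array of the CD8 fraction.

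Agreement between the 2 probes of a gene was read from the change of their within-array difference between fractions, since absolute levels of different probes are not comparable. For CD4 this difference was 0.90, 1.32 and -0.66 on the DP arrays, 0.59, -0.13 and -0.53 for CD4 cells and -0.52, 2.89 and -1.23 for CD8 cells. The fractions overlapped throughout, and CD8 fraction array 2 gave the highest value. For CD8A it was 5.23, 3.61 and 5.74 on the DP arrays, 5.60, 4.04 and 2.48 for CD4 cells and 5.89, 4.96 and 4.32 for CD8 cells. These also overlapped between all fractions. The exact permutation test of the F ratio gave p = 0.914 for CD4 and 0.596 for CD8A, and pairwise exact p-values ran from 0.40 to 1. The first CD8A probe fell by 1.02 more than the second from the CD8 to the CD4 fraction (pairwise exact p = 0.40), where the second was at or near background. Tests of this size do not show that probes respond alike.

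Over the 9 arrays the log2 values of the 2 probes correlated at Pearson's r = 0.834 for CD4 and 0.870 for CD8A. These values are descriptions that rest on the differences between fractions, and the points share each array's scaling. After each fraction's mean was taken off, r was -0.30 for CD4 and -0.03 for CD8A. Which array of a fraction stood higher was thus not shared between the probes of a gene.

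Among partners of the coreceptors, 6 of 15 listed signalling genes were named on the array. None of the 6 passed in any comparison, where 0.293% to 0.437% of all tested probes passed, so this says little for so few genes. Their median differences were -0.11 for DP against the CD4 fraction and 0.06 for DP against the CD8 fraction, where the medians over all tested probes were -0.02 and -0.03. LCK, the kinase that both coreceptors bind, had levels of 3.16 ± 0.39 for DP, 3.35 ± 0.27 for CD4 cells and 3.08 ± 1.03 for CD8 cells (mean ± SD, n = 3). FYN, a related kinase, stood at 1.22 ± 0.21, 1.26 ± 0.49 and 1.19 ± 0.21 in the same order. The T cell receptor chains CD3D, CD3E, CD3G and CD247 differed by between -0.70 and 0.71 for DP against either fraction. All 6 genes were well above background on all 9 arrays, so transcripts of the CD3 chains used in every sort were measured in each sample.

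Of 14 listed transcription factors that shape the choice between CD4 and CD8 or the T cell lineage, 3 were named on the array. None of the 3 passed in any comparison, where 0.293% to 0.437% of all tested probes passed. GATA3, a factor of helper cells, had levels of 3.00 ± 0.56 for DP, 2.62 ± 0.35 for CD4 cells and 0.63 ± 1.54 for CD8 cells. DP minus the CD8 fraction gave 2.37 (SE 0.64, limma adjusted p = 0.226). LEF1, a factor of thymocytes and naive T cells, stood at 6.86 ± 0.29, 8.31 ± 0.47 and 8.17 ± 0.42. ETS1, a factor expressed across T cells, stood at 5.88 ± 0.27, 5.79 ± 0.27 and 5.46 ± 0.28.

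The coreceptors bind MHC molecules, and a list of genes was read for each MHC class. Both lists also hold genes whose products the coreceptors do not bind, such as those of peptide loading. The counts and medians are therefore not of coreceptor ligands alone. Each gene was counted by its tested probe of highest mean. Of the 8 tested class II genes, 2 were higher in DP than in the CD4 fraction and 6 did not pass (median 2.18), where 0.293% of all tested probes passed, and none passed between DP and the CD8 fraction (median 0.15). The alpha chain gene SLA-DRA had levels of 6.91 ± 1.00 for DP, 4.07 ± 0.33 for CD4 cells and 7.34 ± 0.28 for CD8 cells. Between the CD4 and CD8 fractions 3 class II genes were lower in CD4 cells and 5 did not pass (median -2.13), where 0.437% of all tested probes passed. Between DP and the CD4 fraction the probe of highest mean differed by 2.20 for SLA-DQA1 (limma adjusted p = 0.107) and by 3.00 for SLA-DRB1 (0.0509), neither passing. Of the 7 tested SLA-DQA1 probes 2 did pass there, and of the 4 SLA-DRB1 probes 0. None of the 8 tested class I genes passed in any comparison by the probe of highest mean, where 0.293% to 0.437% of all tested probes passed. Their medians were 0.23 and 0.27 for DP against the CD4 and CD8 fractions. The difference between the classes was not tested. SLA-3, a class I heavy chain, differed by 0.40 and 0.30, SLA-8 by 0.38 and 0.08, and B2M, the light chain, by 0.18 and 0.07. Class I genes are near-identical in sequence, so their probes can share signal.

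**Figure D5:**
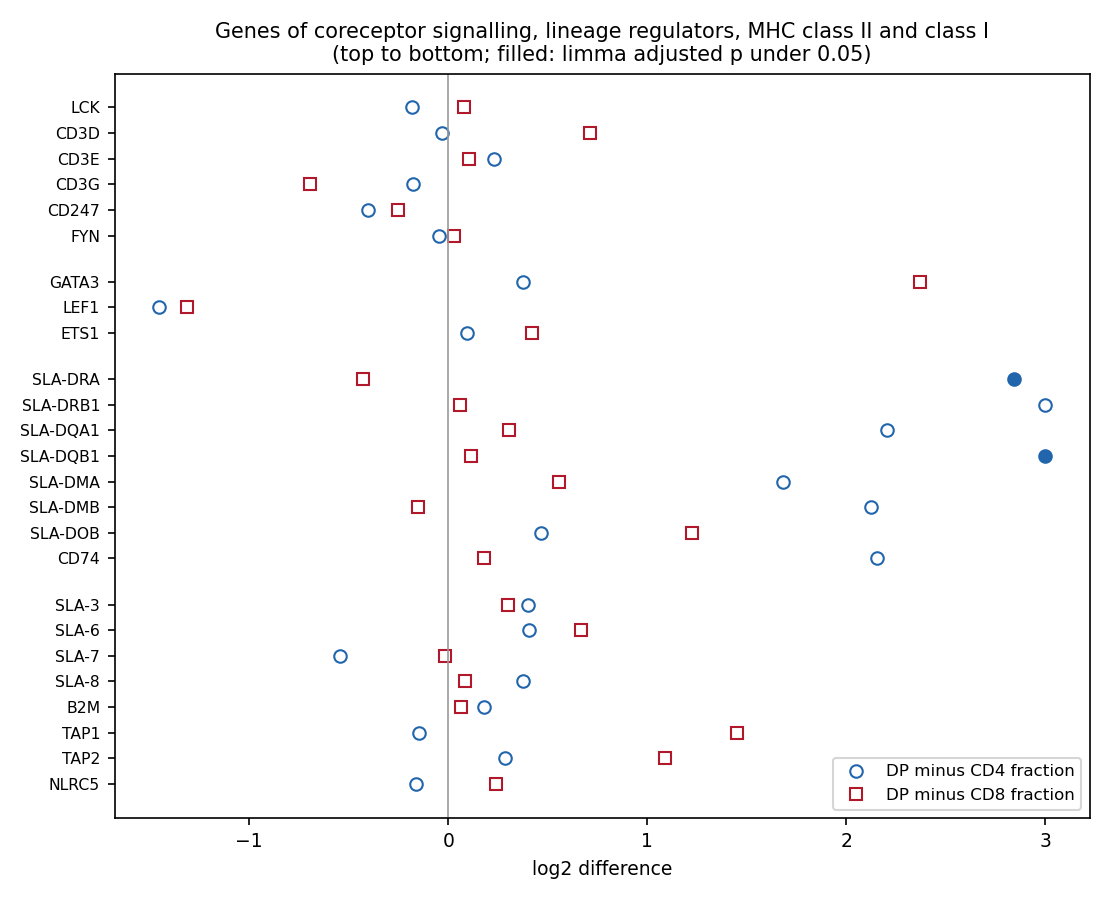
Log2 differences (horizontal axis) of the tested genes of coreceptor signalling, lineage regulators, MHC class II and MHC class I, each by its tested probe of highest mean; blue circles are DP minus the CD4 fraction, red squares are DP minus the CD8 fraction, and filled symbols have a limma adjusted p under 0.05. Among these genes SLA-DRA and SLA-DQB1 are the ones called, both higher in DP than in the CD4 fraction.

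Genes were also ranked by the likeness of their pattern to each coreceptor, as Pearson's r of log2 values over the 9 arrays among 1502 named and tested genes. These r are descriptions with no test, they rest on arrays that share their scaling and on 3 fractions, and nothing follows from them about function. The 5 genes most like the first CD4 probe were IL6ST (r = 0.897), KLF4 (0.868), FST (0.859), DAZAP2 (0.836) and CD40LG (0.826). IL6ST, the signalling chain of interleukin 6 family receptors, had levels of 2.11 ± 0.71 for DP, 2.75 ± 0.37 for CD4 cells and -0.48 ± 0.63 for CD8 cells. CD40LG, the ligand by which helper cells activate B cells, stood at 4.12 ± 0.93, 2.65 ± 0.45 and -0.42 ± 1.18. With the second CD4 probe in its place r was 0.921 for IL6ST and 0.777 for CD40LG, and 0.475 for DAZAP2.

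The 5 genes most like the first CD8A probe were KLRK1 (r = 0.957), GZMH (0.936), SLA-DRA (0.914), MGST1 (0.913) and CCL5 (0.906). KLRK1 encodes NKG2D, by which killer cells sense stressed cells, and had levels of 2.22 ± 1.33 for DP, -2.98 ± 0.25 for CD4 cells and 3.39 ± 0.85 for CD8 cells. GZMH, a granzyme gene, stood at 3.50 ± 0.71, 0.98 ± 1.06 and 5.45 ± 1.03. It did not pass for DP against the CD4 fraction (limma adjusted p = 0.147) or the CD8 fraction (0.401). All 5 genes had the same order of means as CD8A, which adds no support because they were picked for their likeness to it. With the second CD8A probe r was 0.791 for KLRK1 and 0.932 for GZMH.

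Of 6 general T cell genes 5 were tested, and none passed in any comparison, where 0.293% to 0.437% of all tested probes passed. Markers of other blood cells that can carry CD8 alpha or CD4 were read beside the residual signals. Of 10 listed natural killer genes 7 were named on the array, 1 of them above background on no array, and their summed linear signal relative to the 75th percentile was 7.85 to 15.9 in the CD4 fraction, 48.2 to 113.5 in DP and 35.8 to 86.5 in the CD8 fraction. FCGR3A, an Fc receptor that leads this sum, stood at 3.06 ± 0.84 in the CD4 fraction, and NKG7, a granule protein gene, at 0.78 ± 0.43. By the probe of highest mean KLRK1 was the 1 of 5 tested genes that passed between DP and CD4 cells. It was higher in DP by 5.21 (limma adjusted p = 0.00589), where 0.293% of all tested probes passed. KLRK1 was also the 1 that passed for CD4 minus CD8 cells, at -6.38 (limma adjusted p = 0.000985), where 0.437% passed. Between DP and CD4 cells FCGR3A did not pass by its probe of highest mean, and 1 of its 3 probes did. FCER1G and TYROBP, which serve as signalling adaptors, differed by -0.06 and 0.07 between DP and CD4 cells without passing, with -0.33 ± 2.17 and -1.25 ± 1.04 in DP, -0.27 ± 0.60 and -1.31 ± 0.73 in CD4 cells and 2.00 ± 0.20 and -0.87 ± 1.06 in CD8 cells. For KLRK1, 1 of the 3 arrays of CD4 cells was well above background. Of the gamma delta list 1 of 5 genes, CD163L1, was named, and no array had it well above background. Of 9 monocyte genes 6 were named, with sums of 0.93 to 3.61 in the CD8 fraction, 0.75 to 3.25 in DP and 1.02 to 1.83 in the CD4 fraction. LYZ, the 1 monocyte gene tested, passed the background flag in 3 of 3 arrays for CD8 cells, 3 of 3 for DP and 1 of 3 for CD4 cells. Of 5 plasmacytoid dendritic cell genes 1 was named, IRF7, at sums of 0.08 to 0.31 in the CD8 fraction. Of 6 B cell genes 3 were named, and CD79A, which signals for the B cell receptor, had levels of 3.15 ± 0.66 in CD8 cells, 0.17 ± 0.41 in CD4 cells and -0.05 ± 1.27 in DP, and passed between DP and the CD8 fraction (limma adjusted p = 0.0452). The summed signal of these 3 genes was 5.40 to 12.4 in CD8 cells, 1.09 to 2.31 in CD4 cells and 0.44 to 2.86 in DP. The part of these cells in the residual CD4 and CD8A signals was not tested.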

How the data were processed

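The 9 arrays of sorted blood T cells of sows were taken from deposited scanner files. Per the labels' protocols, total RNA was amplified and labelled with Cy3. Per the file headers, spots were read with Agilent Feature Extraction 11.0.1.1 for 1 colour, and its processed signal is a deposited intensity, background-subtracted and detrended within each array, with no step between arrays. For CD4 and CD8A spots off the floor, the processed signal differed from the background-subtracted signal on CD4 fraction array 1 only. There the first CD4 probe read 430.1 against 453.4. The deposited width of a spot is a further value whose unit is not given. The table of processed values, deposited on a log2 scale, had a median of 2.60 in every column. Its 3 CD8 columns match the scanner values of a different CD8 array each, which leaves comparisons of fractions as they are.

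Here log2 of the processed signal minus each array's 75th percentile over probes was used. Flagged spots, 1 to 12 per array, were left out. A probe was tested if well above background on all 3 arrays of a fraction, with at least 2 values per fraction, which left 16024 probes. All 9 arrays were fitted with limma 3.58.1 in R 4.3.3 (lmFit and eBayes with trend, two-sided, Benjamini-Hochberg over tested probes at 0.05). Genes were named through unversioned RefSeq accessions, which named 6730 probes. Each gene named in the text is a member, a listed gene or 1 of the 5 most alike. From the lists all tested signalling and lineage genes and up to 3 others by highest mean were taken, and CD163L1, IRF7, SLA-DQB1, FCER1G and TYROBP were added after their values were seen. The members and lists were chosen with earlier results of these data known. The limma step was tested on simulated data. Figures used Python 3.11.15 and matplotlib 3.10.9.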

Additional observations from a re-analysis of the deposited data

How the results depend on the processing

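Beside leaving out arrays, 3 alternatives ended calls of the first probes. Normexp background correction adds an offset of 50 linear units, more than the 75th percentile on 8 of the 9 arrays, and used the spot median because the files analysed here give no spot mean. With it the log2 differences were 1.59 for CD4 in DP minus CD8, 1.40 for CD4 in CD4 minus CD8 and 2.09 for CD8A in DP minus CD4, and none of these passed. Residual signals were then 33.0% for CD4 and 12.5% for CD8A, and the CD4 probes' disagreement between the CD4 and CD8 fractions was 0.033 in place of -0.40. That of the CD8A probes was then -2.73 in place of -1.02 for CD4 minus CD8 and 1.74 in place of 0.82 for DP minus CD4 (exact permutation p = 0.10 for both, the smallest it can give). With slide as a fixed block, under which DP array 1, alone on its slide, adds nothing, the same differences were 3.92, 4.09 and 2.68 without passing, and CD4 in DP minus CD4 was -0.17. In the deposited value table CD4 in DP minus CD8 was 4.54 (limma adjusted p = 0.0504). The cause of this last change was not tested. Within slide 3, CD4 gave -0.82 in DP minus CD4 and 3.15 in DP minus CD8, and within slide 2, CD8A gave 1.90 in DP minus CD4 and -2.83 in DP minus CD8.

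Leaving out each array moved CD4 from -0.10 to 0.74 in DP minus CD4, from 3.56 to 4.80 in DP minus CD8 and from 3.34 to 4.58 in CD4 minus CD8. CD8A moved from 2.78 to 3.53 in DP minus CD4 and from -2.30 to -1.57 in DP minus CD8. The probes' disagreement moved from -0.67 to 1.39 for CD4 in DP minus CD8, from -1.21 to 0.85 for CD4 in CD4 minus CD8 from -0.64 to 0.43 for CD8A in DP minus CD8, from -1.79 to -0.24 for CD8A in CD4 minus CD8 and from 0.04 to 1.60 for CD8A in DP minus CD4. The first CD8A probe passed between the CD4 and CD8 fractions under all 23 alternatives with a test.

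The fixed replicate block left each difference of the first probes as it was and changed no call of the 4 probes, with adjusted p = 0.0129 for CD4 in DP minus CD8, 0.0101 for CD4 in CD4 minus CD8, 0.00706 and 0.0945 for CD8A in DP minus CD4 and DP minus CD8. Same-numbered arrays correlated in their deviations at -0.07 to 0.65, over 0.1 in 7 of 9 pairs, and 5 of 9 arrays correlated best with their own number. With CD8 arrays numbered as in the value table, 3 of 9 pairs were over 0.1 and 0 of 9 arrays correlated best with their own number. The labels do not tie arrays to animals, and the main fit did not take the labels' numbers as pairs. Whether they are pairs was not settled by these values. The names of the scanner files carry a shared number for each replicate number in all 3 fractions, and the labels do not say whether it marks an animal. With CD8 arrays numbered as in the value table, an alternative added after seeing the data, the second CD8A probe lost its call between the CD4 and CD8 fractions (adjusted p = 0.0679). A random slide block, also added then, changed no call of the 4 probes.

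Over all probes 47 passed for DP minus CD4, 50 for DP minus CD8 and 70 for CD4 minus CD8. The counts were 144, 83 and 110 with the replicate block, 2, 2 and 38 with the slide block, and 1, 7 and 6 with normexp. Without the filter on dim probes the first 2 were 109 and 87. For DP minus CD8 the count was 24 in the value table and 22 with a percentile over probes detected on all arrays. Leaving out each array gave 2 to 54, 1 to 51 and 31 to 83. Signal over background limits the second CD8A probe and CD4 in the CD8 fraction, where spots lie at or near the floor.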
